A study of Homo sapiens with 12 samples.

Results

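The miR-34 family was represented by 3 mature arms, hsa-miR-34a-5p and hsa-miR-34a-3p from the MIR34A hairpin and hsa-miR-34c-5p from the MIR34B/MIR34C locus, which are 3 of the 1204 miRNAs in the count table. They were chosen by name, with earlier results of these data known. Small RNA was sequenced from MV4-11 and Molm-14, human acute myeloid leukemia (AML) cell lines that both carry the internal tandem duplication of FLT3. In each line, cells whose MPC1 gene had been deleted with CRISPR/Cas9 (MPC1 KO) were compared with cells carrying a nontargeting Empty Vector (EV), and 3 libraries were made for each of the 4 groups. MPC1 is a subunit of the carrier that brings pyruvate into mitochondria, and the comparison asked how losing it changes the miRNAs of AML cells. The deletion was made with a lentiCRISPRv2 vector that carries a GFP marker and 1 guide against MPC1, so an effect of the gene and an effect of that guide cannot be told apart. These libraries do not capture mRNA, and the loss of MPC1 transcripts was not checked here. The study reported reduced MPC1 transcripts by qPCR, lower respiration and more extracellular acidification in the MPC1 KO cells of both lines. It also showed a Western blot of the MPC1 protein in Molm-14.

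miR-34 miRNAs are known as tumor-suppressive miRNAs that are raised by DNA damage and other stress. Each hairpin is cut from a longer primary transcript and then diced into a 5p and a 3p arm, and the mature 5p arms repress cell cycle and survival genes such as CDK6, MYC and BCL2. MIR34A is transcribed in most tissues, while MIR34B/MIR34C is best known from lung, testis and multiciliated epithelium, where the miR-449 miRNAs, which share much of their seed with miR-34, are also abundant.

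The sequences below show which arms can act alike. A miRNA finds its targets mainly through its seed, bases 2 to 8 counted from the 5′ end, which is written in capitals. The mature sequences and their places come from RefSeq on GRCh38.p14, which held 2 of the 3 arms studied here and 9 of the 10 miR-34 and miR-449 entries of the table.
hsa-miR-34a-5p: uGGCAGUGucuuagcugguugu
hsa-miR-34a-3p: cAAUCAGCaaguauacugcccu
hsa-miR-34b-5p: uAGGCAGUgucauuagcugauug
hsa-miR-34b-3p: cAAUCACUaacuccacugccau
hsa-miR-34c-3p: aAUCACUAaccacacggccagg
hsa-miR-449a: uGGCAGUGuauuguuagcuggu
hsa-miR-449b-5p: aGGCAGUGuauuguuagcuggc
hsa-miR-449c-5p: uAGGCAGUguauugcuagcggcugu
Among the sequences shown, those of hsa-miR-34a-5p, hsa-miR-449a and hsa-miR-449b-5p have the same seed. The arm studied here whose sequence is not shown is hsa-miR-34c-5p, and as background it is known to share the seed of hsa-miR-34a-5p. hsa-miR-34b-5p and hsa-miR-449c-5p carry 1 base more before the same letters, so their seeds are shifted by that base. The seeds of hsa-miR-34a-3p, hsa-miR-34b-3p and hsa-miR-34c-3p differ from these and from each other. Those of hsa-miR-34b-3p and hsa-miR-34c-3p are shifted against each other by 1 base of the same letters. Of the sequences shown, hsa-miR-34b-5p is the closest to hsa-miR-34a-5p, at 4 single-base changes, insertions or deletions, and hsa-miR-449a is 6 from it.

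Both miR-34a arms come from the minus strand of chromosome 1, hsa-miR-34a-5p at chr1:9151735-9151756 and hsa-miR-34a-3p at chr1:9151693-9151714. In GENCODE v44, on GRCh38, their hairpin (chr1:9151668-9151777) lies wholly within an exon of the long noncoding host gene MIR34AHG, 47129 bases from the start of that gene. MIR34B (chr11:111512938-111513021) and MIR34C (chr11:111513439-111513515) lie on the plus strand of chromosome 11, with 417 bases between them. MIR34C is in an exon of the noncoding gene MIR34BHG, MIR34B is partly in one, and both lie opposite an intron of BTG4. The miR-449 hairpins lie in an intron of CDC20B on chromosome 5.

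Total counts were between 3870104 and 8683456 per library, and 984 to 1057 miRNAs had at least 1 count. The blood miRNAs hsa-miR-142-5p, hsa-miR-142-3p and hsa-miR-223-3p summed to between 26979 and 66486 CPM in every library, where CPM is the count per 1000000 counts of the library, scaled by edgeR's TMM factors. The red cell markers hsa-miR-451a, hsa-miR-144-3p and hsa-miR-486-5p summed to at most 13.2 CPM and the liver marker hsa-miR-122-5p reached at most 9.58 CPM. Of the epithelial markers, hsa-miR-200c-3p was present at up to 256 CPM, hsa-miR-141-3p stayed at or under 4.94 CPM and hsa-miR-205-5p at or under 0.389 CPM. No pair of libraries within a group agreed within sampling noise (chi-square per degree of freedom from 11.4 to 154). In both Molm-14 groups replicate 2 was the least like the others. Its pairs had 154 and 108 in EV, against 23.0 for replicates 1 and 3. In Molm-14 MPC1 KO they had 82.3 and 71.3, against 11.4. In MV4-11 the values were 36.2 to 98.7 in EV and 31.9 to 74.7 in MPC1 KO. The labels do not say whether the 3 libraries of a group were separate cultures, so the p-values measure only the spread between these samples, which may be technical. In a bulk library, fewer cells that make a miRNA and less of it per cell cannot be told apart.

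hsa-miR-34a-5p was by far the most abundant arm of the family and stayed between 451 and 624 CPM in all libraries. In MV4-11 EV cells it was measured at 543, 624 and 543 CPM in replicates 1, 2 and 3, from 4457, 2756 and 2267 counts. In MV4-11 MPC1 KO cells it was at 516, 480.5 and 502 CPM. The MPC1 KO libraries all lay below the EV libraries in this line. In Molm-14 EV cells the arm was at 498, 451 and 481 CPM, and in Molm-14 MPC1 KO cells at 535, 523 and 529 CPM. There the MPC1 KO libraries all lay above the EV libraries, the opposite side from MV4-11.

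The group means of hsa-miR-34a-5p were 569.9 ± 47.2 CPM in MV4-11 EV and 499.6 ± 17.9 CPM in MV4-11 MPC1 KO (SD, n = 3 each). For Molm-14 they were 477 ± 23.8 CPM in EV and 529 ± 5.97 CPM in MPC1 KO (SD, n = 3 each). It ranked between 89 and 98 among the 659 miRNAs kept by edgeR's filter of low counts. From the highest mean to the lowest, the order was MV4-11 EV, Molm-14 MPC1 KO, MV4-11 MPC1 KO and Molm-14 EV. The libraries of the last pair in this order overlapped, those of the other neighbours did not.

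hsa-miR-34a-3p, the arm from the other side of the same hairpin that is usually degraded as the passenger strand, was close to the limit of what could be compared. It had 44, 21 and 24 counts in MV4-11 EV and 30, 32 and 33 with MPC1 KO, against 6, 13 and 15 in the EV cells of Molm-14 and 19, 27 and 12 in its MPC1 KO cells. Scaled, these were 5.36, 4.76 and 5.75 CPM, then 5.83, 5.35 and 5.83 CPM in MV4-11, and 1.20, 3.47 and 3.37 CPM, then 3.42, 4.95 and 2.81 CPM in Molm-14. Every Molm-14 EV library was below every MV4-11 EV library, and within each line the MPC1 KO and EV libraries overlapped. The lowest value, Molm-14 EV replicate 1, rested on 6 counts. The means were 5.29 ± 0.498 and 5.67 ± 0.274 CPM in MV4-11 EV and MPC1 KO and 2.68 ± 1.28 and 3.73 ± 1.10 CPM in Molm-14 EV and MPC1 KO (SD, n = 3 each). Neighbours in the order of these means, MV4-11 MPC1 KO, MV4-11 EV, Molm-14 MPC1 KO and Molm-14 EV, all overlapped.

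hsa-miR-34c-5p, from the second miR-34 locus, was rare in every group and the arm that differed most with MPC1 KO in Molm-14. In Molm-14 EV cells it had 34, 25 and 26 counts, or 6.79, 6.67 and 5.85 CPM. In Molm-14 MPC1 KO cells it had 63, 76 and 44 counts, or 11.3, 13.9 and 10.3 CPM, and each of these libraries was above every EV library. In MV4-11 EV it had 89, 51 and 30 counts, or 10.8, 11.6 and 7.18 CPM, and in MV4-11 MPC1 KO 38, 46 and 43 counts, or 7.38, 7.69 and 7.59 CPM. The MV4-11 EV libraries were spread around the tight MPC1 KO values, with replicate 3 below them and the others above.

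The counting error of these values was wide, and its part in their spread was not tested. The exact 95% interval of the count of hsa-miR-34c-5p, scaled to the library total without TMM factors, was 4.49 to 9.06, 4.18 to 9.54 and 3.66 to 8.21 CPM in the Molm-14 EV libraries. It was 8.77 to 14.6, 10.3 to 16.4 and 7.42 to 13.7 in Molm-14 MPC1 KO. Such intervals treat each read as independent and hold no other source of spread. Reads amplified by PCR are not independent molecules, so the intervals may be too narrow even for counting error. The highest group mean was that of Molm-14 MPC1 KO, 11.9 ± 1.87 CPM, ahead of MV4-11 EV at 9.86 ± 2.34, MV4-11 MPC1 KO at 7.56 ± 0.159 and, lowest, Molm-14 EV at 6.44 ± 0.511 (SD, n = 3 each). Only the last pair of neighbours in this order did not overlap.

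**Figure D1:**
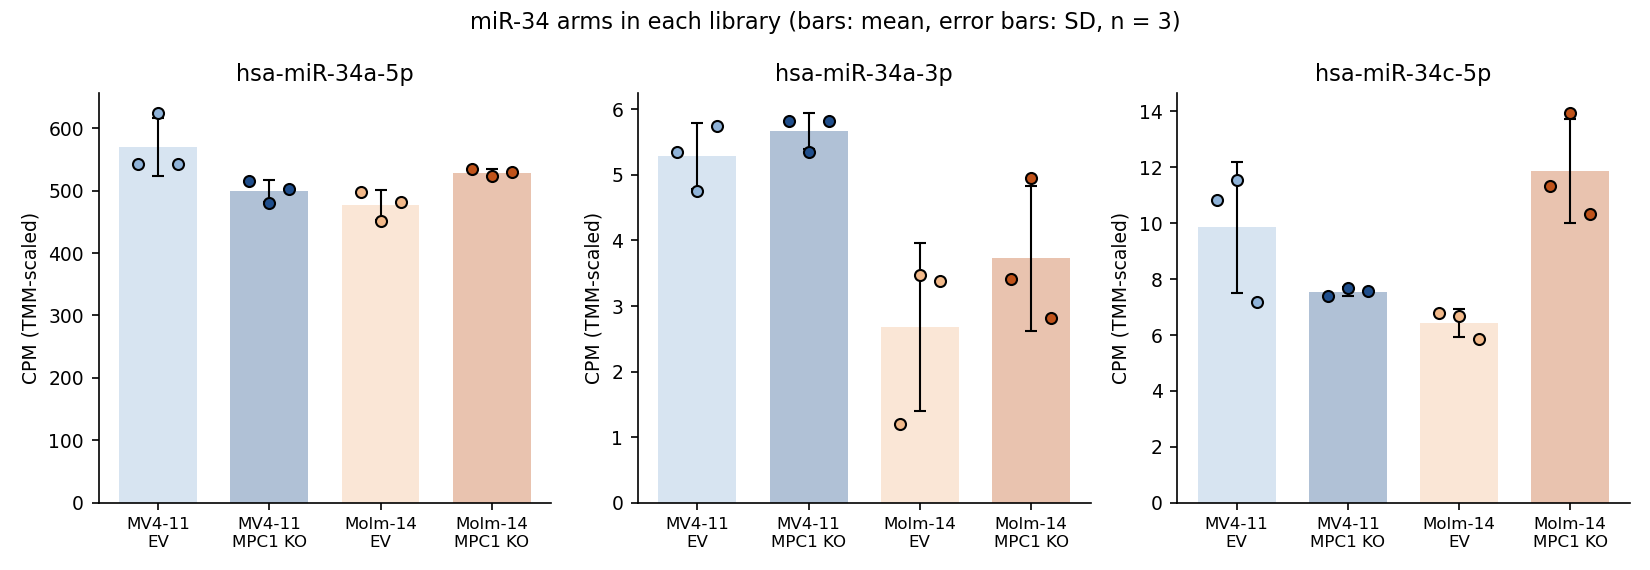
Level of hsa-miR-34a-5p, hsa-miR-34a-3p and hsa-miR-34c-5p (one panel each) in CPM with TMM scaling, by group. Points are the 3 libraries of a group, bars the mean and error bars the SD. hsa-miR-34a-5p stays between 451 and 624 CPM, while the hsa-miR-34c-5p libraries of Molm-14 MPC1 KO (10.3 to 13.9 CPM) all lie above those of Molm-14 EV (5.85 to 6.79 CPM).

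The remaining arms of the MIR34B/MIR34C locus were at or near 0. hsa-miR-34b-5p had at most 1 count in a library and was at 0 in all EV libraries. hsa-miR-34b-3p had between 0 and 3 counts and hsa-miR-34c-3p between 0 and 4. None passed the filter on low counts, so no fold is given, and a count of 0 allows up to 3 counts, or 0.345 to 0.775 CPM depending on the library. hsa-miR-34b-5p stayed at 0 or 1 count in libraries with 1690 to 4457 counts of hsa-miR-34a-5p. How reads that match more than one miRNA were counted is not given in the sources used here.

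The MIR34A locus therefore held nearly all miR-34 counts. Its arms made up between 97.3% and 98.8% of the counts of the 6 miR-34 arms in a library. Within a library, there were between 37.5 and 82.3 reads of hsa-miR-34a-5p for each read of hsa-miR-34c-5p, and this ratio does not depend on how libraries are scaled. Because small RNA adapters join different sequences with different efficiency, it is a ratio of reads and not of molecules.

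hsa-miR-34c-5p took 1.34%, 1.46% and 1.20% of the reads of hsa-miR-34a-5p and hsa-miR-34c-5p together in Molm-14 EV, with exact (Clopper-Pearson) 95% intervals of 0.933% to 1.87%, 0.946% to 2.14% and 0.786% to 1.75%. In Molm-14 MPC1 KO it took 2.08%, 2.60% and 1.91%, with intervals of 1.60% to 2.65%, 2.05% to 3.24% and 1.39% to 2.56%. All MPC1 KO shares were above all EV shares in this line, although the intervals of single libraries overlapped. In MV4-11 the shares were 1.96%, 1.82% and 1.31% in EV and 1.41%, 1.58% and 1.49% in MPC1 KO, where the groups overlapped.

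The ratio of hsa-miR-34a-5p to hsa-miR-34c-5p averaged 74.4 ± 7.41 in EV and 45.3 ± 7.10 in MPC1 KO cells of Molm-14 (SD, n = 3 each). The log2 ratio differed by -0.71, and the exact two-sided permutation test gave p = 0.1, the smallest value that 3 libraries against 3 allow (adjusted p = 0.2 over the 6 ratio tests). In MV4-11 the ratio averaged 59.9 ± 13.7 in EV and 66.2 ± 3.72 in MPC1 KO, a log2 difference of 0.16 (exact permutation p = 0.4, adjusted p = 0.6). Across the lines, 6 libraries against 6, the log2 ratio of Molm-14 differed from that of MV4-11 by -0.11 (exact permutation p = 0.571, adjusted p = 0.686). Within the genotypes the difference had opposite signs, 0.32 between the EV cells, where the lines overlapped, and -0.55 between the MPC1 KO cells, where they did not.

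**Figure D2:**
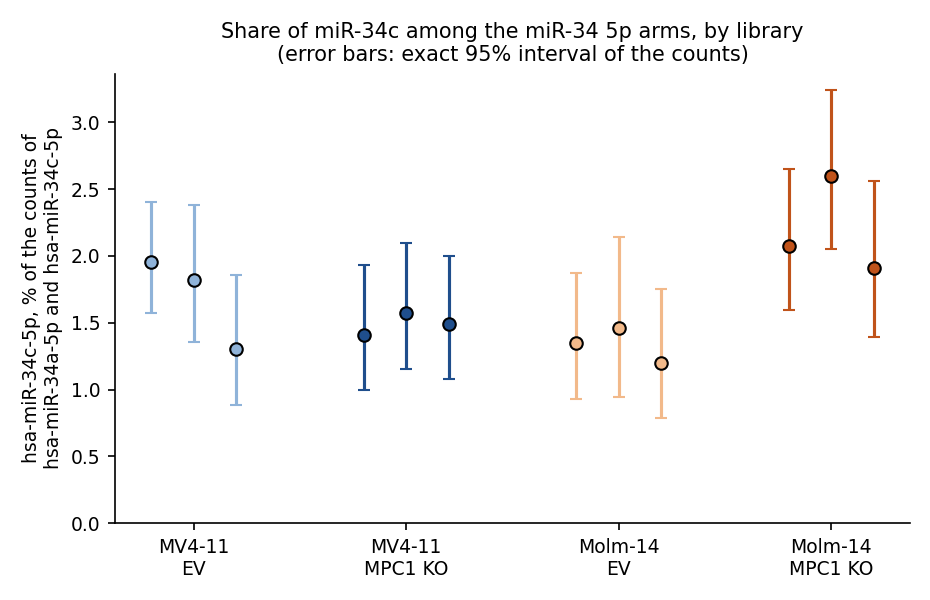
Share of hsa-miR-34c-5p (vertical axis, percent) among the counts of hsa-miR-34a-5p and hsa-miR-34c-5p in each library, by group, with exact 95% intervals of the counts as error bars. The Molm-14 MPC1 KO libraries lie between 1.91% and 2.60%, above the Molm-14 EV libraries at 1.20% to 1.46%, and the MV4-11 groups overlap.

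The arms of the MIR34A hairpin were read in very unequal numbers, with 86.2 to 415.8 reads of hsa-miR-34a-5p for each read of hsa-miR-34a-3p. In MV4-11 the mean ratio was 109 ± 19.6 for EV and 88.2 ± 1.81 for MPC1 KO, and in Molm-14 it was 229.5 ± 161 for EV and 150.1 ± 41.7 for MPC1 KO (SD, n = 3 each). Molm-14 had the higher log2 ratio, by 0.77 (exact two-sided permutation test, 6 libraries against 6, p = 0.00649, adjusted p = 0.0390). The difference was 0.83 between EV cells, where the lines overlapped, and 0.71 between MPC1 KO cells, where they did not. It fell to 0.52 without Molm-14 EV replicate 1, the library with 6 counts of the 3p arm. With any 1 of 11 of the 12 libraries left out, or a pseudocount of 1 in place of 0.5, the adjusted p was above 0.05 (up to 0.0779 and 0.0519, exact permutation tests). MPC1 KO changed the log2 arm ratio by -0.29 in MV4-11 (exact permutation p = 0.1, the smallest possible, adjusted p = 0.2) and by -0.41 in Molm-14 (exact permutation p = 0.7, adjusted p = 0.7). Without Molm-14 EV replicate 1 the latter value turned to 0.11.

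The effect of MPC1 KO was then tested across all 659 miRNAs with edgeR's quasi-likelihood test on all 12 libraries, with p-values adjusted by the Benjamini-Hochberg method. In Molm-14, hsa-miR-34c-5p rose with MPC1 KO, by 0.89 on the log2 scale (SE, the standard error, 0.227, 95% interval 0.42 to 1.36, edgeR's adjusted p = 0.0131). This is a fold of 1.85, with an interval of 1.33 to 2.56. It was the 1 of the 3 arms that passed in Molm-14, where 6.83% of all miRNAs tested passed and 2.73% passed as higher. 2 of the 3 arms, hsa-miR-34a-5p and hsa-miR-34c-5p, had every MPC1 KO library above every EV library in Molm-14, as did 12.3% of all miRNAs tested. Without Molm-14 EV replicate 3 the log2 fold change of hsa-miR-34c-5p was 0.83 (edgeR adjusted p = 0.0626), and without Molm-14 MPC1 KO replicate 2 it was 0.77 (edgeR adjusted p = 0.112).

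hsa-miR-34a-5p had a log2 fold change of 0.15 in Molm-14 (SE 0.0898, edgeR adjusted p = 0.386). Its fold of 1.11 had a 95% interval of 0.975 to 1.26, so a change larger than the upper bound lies outside the interval. hsa-miR-34a-3p had 0.53 (SE 0.353, 95% interval -0.20 to 1.26, edgeR adjusted p = 0.453), an interval wide enough to hold both no difference and the change of hsa-miR-34c-5p. Without Molm-14 EV replicate 1 the value of hsa-miR-34a-3p was 0.15, and without Molm-14 MPC1 KO replicate 2 it was 0.28.

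In MV4-11 none of the 3 arms passed edgeR's test at the threshold of 0.05, in a comparison where 3.03% of all miRNAs tested did. 1 arm, hsa-miR-34a-5p, had an unadjusted p under 0.05 there, as did 92 of the 659 miRNAs tested, and DESeq2 and limma-voom also passed none. The log2 fold change of hsa-miR-34a-5p was -0.19 (SE 0.0895, edgeR adjusted p = 0.337), with every MPC1 KO library below every EV library, as for 7.13% of all miRNAs tested. The fold change moved to -0.12 when either replicate 2 or replicate 3 of Molm-14 EV was left out of the fit of all libraries. hsa-miR-34c-5p had -0.40 (SE 0.218, 95% interval -0.85 to 0.05, edgeR adjusted p = 0.459). hsa-miR-34a-3p had 0.10 (SE 0.286, 95% interval -0.49 to 0.69, edgeR adjusted p = 0.931), and its sign turned under upper-quartile scaling (-0.018), which also moved the median of all miRNAs in this comparison to -0.12.

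The difference between the lines was tested directly, as the MPC1 KO effect in Molm-14 minus that in MV4-11. For hsa-miR-34c-5p it was 1.28 on the log2 scale (SE 0.315, 95% interval 0.63 to 1.93, edgeR adjusted p = 0.0154), a ratio of folds of 2.43 with an interval of 1.55 to 3.82. This was the 1 arm of the 3 that passed, where 6.68% of all miRNAs tested did and 2.43% passed as higher in Molm-14. Without Molm-14 EV replicate 3 the difference was 1.16 and without Molm-14 MPC1 KO replicate 2 it was 1.17 (adjusted p = 0.0574 and 0.0532 from edgeR's test). For hsa-miR-34a-5p the difference was 0.34 (SE 0.127, 95% interval 0.08 to 0.60, edgeR adjusted p = 0.133). With upper-quartile scaling it was 0.52 and passed (edgeR adjusted p = 0.0178), while the median difference of all miRNAs moved to 0.18 from -0.00. For hsa-miR-34a-3p it was 0.43 (SE 0.455, edgeR adjusted p = 0.673), and 0.057 without Molm-14 EV replicate 1 or 0.19 without Molm-14 MPC1 KO replicate 2.

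**Figure D3:**
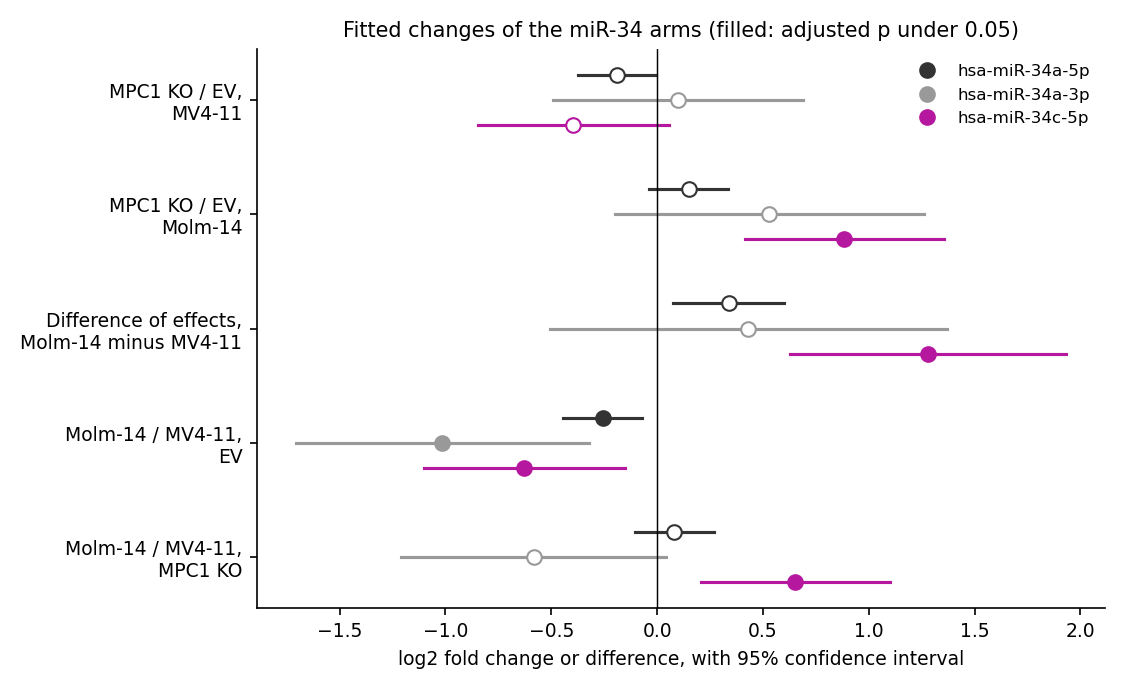
Fitted log2 fold changes, and the log2 difference of the MPC1 KO effects (horizontal axis), of the 3 miR-34 arms in each comparison, with 95% confidence intervals as lines. Filled points have an adjusted p under 0.05: hsa-miR-34c-5p in Molm-14 (0.89), in the difference between lines (1.28) and between the lines in both genotypes (-0.63 and 0.65), and the miR-34a arms between the EV controls (-0.26 and -1.02).

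Among the EV controls, all 3 arms were lower in Molm-14 than in MV4-11. In this comparison 61.9% of all miRNAs tested passed, 28.4% as lower in Molm-14, so a difference between the lines was common. hsa-miR-34a-5p fell by 0.26 on the log2 scale (SE 0.0898, edgeR adjusted p = 0.0165), to a fold of 0.837 with an interval of 0.736 to 0.952. hsa-miR-34a-3p fell by 1.02 (SE 0.335, edgeR adjusted p = 0.0115), to a fold of 0.495 with an interval of 0.306 to 0.800. hsa-miR-34c-5p fell by 0.63 (SE 0.230, edgeR adjusted p = 0.0217), to a fold of 0.647 with an interval of 0.466 to 0.900. For each arm every Molm-14 EV library was below every MV4-11 EV library, as for 29.3% of all miRNAs tested.

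These baseline calls each rested on few libraries. hsa-miR-34a-5p did not pass without MV4-11 EV replicate 2, Molm-14 EV replicate 2 or Molm-14 EV replicate 3 (edgeR adjusted p of 0.0948, 0.0904 and 0.0823). hsa-miR-34a-3p did not pass without Molm-14 EV replicate 1, where its log2 fold change was -0.66 (edgeR adjusted p = 0.0849). hsa-miR-34c-5p did not pass without MV4-11 EV replicate 1 or 2 or Molm-14 EV replicate 3 (edgeR adjusted p of 0.0632, 0.0683 and 0.106).

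Between the MPC1 KO cells of the lines the picture was mixed. hsa-miR-34c-5p was higher in Molm-14, by 0.65 on the log2 scale (SE 0.216, 95% interval 0.21 to 1.10, edgeR adjusted p = 0.0110), a fold of 1.57 with an interval of 1.16 to 2.14. It was the 1 arm that passed, where 62.4% of all miRNAs tested did, 32.9% as higher in Molm-14, and without Molm-14 MPC1 KO replicate 2 it did not (0.49, edgeR adjusted p = 0.0979). Its order between the lines was thus opposite in the EV and the MPC1 KO cells, each tested on its own, and the direct test of that change is the difference of 1.28 above. hsa-miR-34a-5p had 0.08 (SE 0.0896, 95% interval -0.10 to 0.27, edgeR adjusted p = 0.440), and -0.027 when libraries were scaled to their total counts. hsa-miR-34a-3p had -0.58 (SE 0.302, 95% interval -1.21 to 0.04, edgeR adjusted p = 0.0998). It passed without Molm-14 MPC1 KO replicate 2 (-0.87, edgeR adjusted p = 0.0355) and with total-count scaling (-0.70, edgeR adjusted p = 0.0464).

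The miR-449 miRNAs, the relatives shown above by their seeds, were also rare. hsa-miR-34a-5p supplied between 99.1% and 99.8% of the summed counts of hsa-miR-34a-5p, hsa-miR-449a and hsa-miR-449b-5p, which leaves out hsa-miR-34c-5p. hsa-miR-449a averaged 1.41 ± 0.430 and 1.42 ± 0.490 CPM in MV4-11 EV and MPC1 KO and 3.01 ± 0.710 and 2.31 ± 0.307 CPM in Molm-14 EV and MPC1 KO (SD, n = 3 each). Unlike the miR-34 arms it was higher in Molm-14 EV than in MV4-11 EV, by 1.05 on the log2 scale (SE 0.400, edgeR adjusted p = 0.0264), from 4 to 15 counts per library. hsa-miR-449a was kept by the filter on low counts only through the Molm-14 libraries. Those are the libraries where it was higher, so its call is not independent of the filter. It did not pass without MV4-11 EV replicate 1 or 3 or Molm-14 EV replicate 2 or 3 (edgeR adjusted p up to 0.0873), nor with DESeq2, upper-quartile scaling or no filter on low counts. hsa-miR-449c-5p averaged between 7.19 and 9.70 CPM in the groups, with a log2 fold change of -0.42 in Molm-14 MPC1 KO against EV (SE 0.227, edgeR adjusted p = 0.323), opposite in sign to that of hsa-miR-34c-5p. The arms of miR-449b had at most 2 counts in a library and were not tested.

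Over the 12 libraries the arms moved together only in part. The Pearson correlation of log2 CPM was 0.65 between hsa-miR-34a-5p and hsa-miR-34c-5p, 0.23 between the miR-34a arms, and 0.21 between hsa-miR-34a-3p and hsa-miR-34c-5p. These are descriptions over libraries that share cell lines and genotypes, and the low counts of hsa-miR-34a-3p limit what they can show. The miRNAs most like hsa-miR-34a-5p by this measure were hsa-miR-223-3p (0.70), hsa-miR-582-3p (0.70), hsa-miR-636 (0.68), hsa-miR-502-5p (0.65) and hsa-miR-378a-3p (0.65). Those most like hsa-miR-34c-5p were hsa-miR-196b-3p (0.74), hsa-miR-3154 (0.72), hsa-miR-6806-3p (0.68), hsa-miR-378a-3p (0.67) and hsa-miR-155-5p (0.66). Those most like hsa-miR-34a-3p were hsa-miR-6501-5p (0.91), hsa-miR-141-3p (0.86), hsa-miR-451a (0.86), hsa-miR-6852-5p (0.85) and hsa-miR-551a (0.85). hsa-miR-378a-3p is on both lists for the 5p arms of the miR-34 loci, but it had only 2 to 15 counts in a library. hsa-miR-636 (6 to 23 counts), hsa-miR-3154 (5 to 27) and hsa-miR-6806-3p (6 to 39) were also rare. So were hsa-miR-141-3p (3 to 28), hsa-miR-451a (6 to 33) and hsa-miR-6852-5p (3 to 16) on the list for hsa-miR-34a-3p. hsa-miR-551a had 63 to 120 counts in the MV4-11 libraries but only 0 to 4 in those of Molm-14. Each list holds the highest of many correlations over the same libraries, and a shared entry was not tested.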

How the data were processed

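Small RNA libraries were prepared from total RNA with the NEBNext small RNA kit. The deposited table held raw counts, whole reads per mature miRNA in each of the 12 libraries, which the authors had not normalized. The submitters' processing notes name STAR 2.5.2, featureCounts 1.5.1 and GRCh38, and the study's methods describe alignment with STAR and assignment of reads to annotated genes with featureCounts, without saying whether the miRNA counts were made this way. Libraries were assigned to groups by their labels, and all were used.

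These counts were analysed in R 4.3.3 by edgeR 4.0.16, using filterByExpr (minimum count 10), which kept 659 of 1204 miRNAs, TMM factors (0.940 to 1.08) and a robust quasi-likelihood fit of 4 group means. Benjamini-Hochberg adjustment covered all miRNAs tested, and the threshold was 0.05. The fit was tested on simulated data. Ratios within a library used a pseudocount of 0.5 and exact two-sided permutation tests (SciPy 1.17.1). The miRNAs named are the arms studied, every other miR-34 or miR-449 entry and every entry whose mature sequence was found with a shared seed, the 5 miRNAs most correlated with each arm, and markers of blood and other tissues. A list of other miRNAs planned beside them is not reported here. The members and lists were chosen with earlier results of these data known. Alternatives were other scalings, no filter, DESeq2 1.42.0, limma-voom (limma 3.58.1), edgeR on each line, replicate number as a block, a pseudocount of 1 and leaving out each library.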

Additional observations from a re-analysis of the deposited data

Results flagged for a closer look

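With 3 libraries a group, no group was large enough to be searched for a single library far from the rest. By the direct test of that difference in edgeR's quasi-likelihood fit, the lines differed in how MPC1 KO changed 1 of the 3 miR-34 arms. Of all miRNAs tested, 6.68% passed in this comparison and 2.43% passed as higher in Molm-14. For hsa-miR-34c-5p the log2 difference, Molm-14 minus MV4-11, was 1.28 (edgeR adjusted p = 0.0154), with log2 fold changes of 0.89 in Molm-14 and -0.40 in MV4-11. The difference had the same sign in every alternative tried. It did not pass without Molm-14 EV replicate 3 or without Molm-14 MPC1 KO replicate 2 (edgeR adjusted p = 0.0574 and 0.0532).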

How the results depend on the processing

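The rise of hsa-miR-34c-5p in Molm-14 MPC1 KO cells kept its sign under every alternative. It was 0.87 to 0.96 and passed in 8 of 8 fits on all the libraries or all those of the line, and 0.77 to 0.98 with 1 library left out, where it passed in 10 of 12. Its difference between lines was 1.22 to 1.46 (7 of 7) and 1.16 to 1.46 (10 of 12). With replicate number as a block, the values were 0.87 (edgeR adjusted p = 0.0138) and 1.25 (adjusted p = 0.0169), and no call on a miR-34 arm changed. Same-numbered libraries of EV and MPC1 KO did not deviate together throughout, so the numbers were not taken to pair them. The correlation r of their deviations was -0.41 to 0.38 in MV4-11, and 0.084 to 0.40, all positive, in Molm-14. Counts of 6 to 89 per library in the rarer arms limit the precision.

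With 1 library left out, the log2 value between EV controls was -0.34 to -0.19 for hsa-miR-34a-5p, -1.21 to -0.66 for hsa-miR-34a-3p and -0.80 to -0.52 for hsa-miR-34c-5p, and between MPC1 KO cells -0.87 to -0.43 for hsa-miR-34a-3p and 0.49 to 0.75 for hsa-miR-34c-5p. The arm ratio between lines was 0.52 to 0.90 and its change in Molm-14 -0.70 to 0.11. The ratio of hsa-miR-34a-5p to hsa-miR-34c-5p between lines was -0.22 to 0.0079. The miRNAs past the threshold numbered 12 to 38 in MV4-11 (20 with all libraries) and 22 to 53 for the difference (44).

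Upper-quartile scaling moved the median of all miRNAs by more than 0.1, to -0.12 in MV4-11, 0.18 for the difference and -0.12 between EV controls. The split of higher against lower calls became 10 and 15 in MV4-11 (13 and 7 with TMM), 30 and 23 in Molm-14 (18 and 27) and 31 and 13 for the difference (16 and 28). Under it, hsa-miR-34a-3p in MV4-11 was -0.018 and the difference for hsa-miR-34a-5p 0.52. Total-count scaling gave -0.027 for hsa-miR-34a-5p and -0.70 for hsa-miR-34a-3p between MPC1 KO cells, and 20 higher and 6 lower in MV4-11. DESeq2 gave -0.67 for hsa-miR-34c-5p between EV controls (adjusted p = 0.0518 from DESeq2) and 31 miRNAs past the threshold in MV4-11. limma-voom gave 9 higher and 27 lower for the difference. A pseudocount of 1 gave 0.74 for the arm ratio between lines. The causes were not tested.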
